A study of Mus musculus with 6 samples.

Results

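The genes described here are 39 mouse interferon-stimulated genes, interferon-inducible GTPases and nucleic acid sensors, taken by symbol from a table of 41709 genes because they bear on muscle that has received plasmid DNA. They were listed by their known function and not by a threshold on measured values, although earlier results of these data were known when the list was made. They comprise 4 transcription factors, 5 genes for sensors and their adaptor, 19 antiviral effectors and 11 GTPases of the guanylate-binding and immunity-related families. Expression was measured by RNA sequencing in 6 tibialis anterior muscles of mice. In each of them, a plasmid encoding LRPPRC, an RNA-binding protein that stabilizes mitochondrial mRNAs, had been introduced by electroporation. In 3 muscles (LrpprcWT, the control) the plasmid carried wild-type mouse Lrpprc, and in 3 muscles (LrpprcP27A) it carried the P27A variant, in which alanine replaces a proline so that this position resists dihydroxylation. The study's methods describe C57BL/6J male mice, Flag-tagged cDNAs in a vector with the viral CMV promoter, hyaluronidase injection before electroporation, and collection of the muscles 14 days later. The age of these mice is not given in the sources used here. All 6 muscles therefore received foreign DNA and an electric pulse, and muscle without plasmid was not analysed here. Values are TPM (transcripts per 1000000 transcripts), a level corrected for transcript length that has the same sum in each library. The read depth behind a TPM value cannot be recovered from it, so no counting error is given. The study describes the plasmids as placed in contralateral muscles of a mouse, and same-numbered muscles of the groups are compared as pairs below.

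Cells recognize DNA in the cytosol through cGAS, which makes a cyclic dinucleotide that activates STING, and RNA through RIG-I-like receptors such as MDA5, which act through MAVS. Both routes lead to type I interferons, and secreted interferons bind receptors on the same or neighboring cells. There, a complex that includes STAT2 and IRF9 binds the interferon-stimulated response element (ISRE) in the promoters of target genes. Interferon gamma acts mainly through a different element called GAS. Plasmid DNA delivered to tissue is a known stimulus of such sensors.

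To show the elements that link these genes, the bases before the start site of the canonical GENCODE transcript (release M39) were read from the mouse genome build GRCm39 and searched on both strands. A core of GAAANNGAAA was used for the ISRE and TTCNNNGAA for GAS, and overlapping matches were allowed. The sequences below cover the 250 bases upstream of the start, 5′ to 3′ on the gene's strand, with ISRE matches in capitals. Bst2 (chr8:71990115-71990364, minus strand), Isg15 (chr4:156285304-156285553, minus strand) and Ifit3 (chr19:34560649-34560898, plus strand) are the members with the highest TPM whose upstream window held a match and no annotated exon. Irgm2 also ranked among them, but its window lies in an exon of Igtp and is not shown. Ifit3b (chr19:34585078-34585327, plus strand) was added after its values were seen, for comparison with Ifit3.
Bst2: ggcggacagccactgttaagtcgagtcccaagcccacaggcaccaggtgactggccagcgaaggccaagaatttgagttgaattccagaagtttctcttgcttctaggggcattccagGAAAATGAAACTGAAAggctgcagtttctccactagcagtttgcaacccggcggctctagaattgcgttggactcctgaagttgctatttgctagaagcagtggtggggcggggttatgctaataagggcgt
Isg15: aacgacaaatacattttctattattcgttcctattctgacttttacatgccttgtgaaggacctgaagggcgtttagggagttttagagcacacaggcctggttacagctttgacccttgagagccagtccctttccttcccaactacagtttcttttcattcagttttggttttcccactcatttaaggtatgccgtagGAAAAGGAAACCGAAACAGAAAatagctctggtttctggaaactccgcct
Ifit3: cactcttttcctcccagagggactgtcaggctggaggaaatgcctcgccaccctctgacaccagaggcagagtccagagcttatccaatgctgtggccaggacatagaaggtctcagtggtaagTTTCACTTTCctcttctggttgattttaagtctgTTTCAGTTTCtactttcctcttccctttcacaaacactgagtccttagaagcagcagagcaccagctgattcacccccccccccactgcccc
Ifit3b: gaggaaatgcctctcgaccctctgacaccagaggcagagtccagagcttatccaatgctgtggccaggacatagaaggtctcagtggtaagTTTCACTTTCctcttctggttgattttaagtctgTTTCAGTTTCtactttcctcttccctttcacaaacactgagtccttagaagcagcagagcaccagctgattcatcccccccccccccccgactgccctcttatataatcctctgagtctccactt

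The Isg15 window held 3 overlapping matches, the first starting 50 bases before the start site, and the Bst2 window held 2, at -132 and -126. Ifit3 and Ifit3b each held 2 matches in the same arrangement, at -126 and -92 for Ifit3 and at -159 and -125 for Ifit3b. Over 263 aligned bases of their 300-base promoters (250 bases before and 50 after the start), the Ifit3 and Ifit3b sequences were 98.48% identical. Across the members, 23 of 39 promoters of this length held an ISRE core (58.97%), compared with 3.67% of the promoters of 19727 protein-coding genes in the table. Matches were found in 9 of 11 GTPases, 10 of 19 effectors, 3 of 5 genes for sensors and their adaptor, and 1 of 4 transcription factors, the latter being Stat2. The GAS core was found in 13 of 39 members (33.33%), against 8.5% of the protein-coding genes, and 7 of these 13 were GTPases. In the RefSeq promoter table (GRCm38.p6), which holds 29 of the members, 20 had an ISRE core (68.97%), against 3.99% of all its genes. A match is a description of the letters and not a measured binding site, and genes without these letters may use another element or another start site.

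The tissue matched its label: Acta1, the skeletal muscle actin, was listed between 35108 and 44523 TPM in the 6 libraries. Lrpprc, the gene on the plasmids, had 35.1, 37.0 and 75.2 TPM in LrpprcWT and 26.9, 29.7 and 26.0 TPM in LrpprcP27A, without a passing difference (limma adjusted p = 0.0652). All 3 LrpprcP27A values were nevertheless below those of LrpprcWT, and the difference passed with the replicate block (limma adjusted p = 0.00243). These values cannot separate the plasmid's transcript from that of the mouse gene. The libraries also differed in composition. Transcripts of the mitochondrial genome took 36.0 to 45.2% of the TPM in LrpprcWT and 44.2 to 46.1% in LrpprcP27A, and the median log2 difference of all 11611 genes tested (those with a mean of at least 1 TPM) was -0.32. For that reason, the counts of calls are also given after median-of-ratios scaling, which brings the median over all genes to -0.0047. Among the LrpprcWT muscles, replicate 2 was the lowest in 33 of the 39 members. Among the LrpprcP27A muscles, replicate 3 was the highest in 34 of 39. The shares of all genes with these orders were not computed, so both counts have no background. The median-of-ratios factors, computed over genes tested and detected in every library, were 1.23, 0.974 and 1.25 in LrpprcWT. In LrpprcP27A they were 0.897, 0.851 and 0.899. Replicate 2 thus had the lowest factor of LrpprcWT, and replicate 3 the highest of LrpprcP27A by a narrow margin.

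None of the 39 genes was at 0 in any library. Their summed level was 345.9, 201.5 and 326.9 TPM in LrpprcWT and 117.4, 119.8 and 179.2 TPM in LrpprcP27A, with means of 291 ± 78.5 and 139 ± 35.0 TPM (SD, n = 3 each). The sums of the groups therefore did not overlap. In these bulk samples, fewer cells of a type and less RNA per cell cannot be told apart. Of the 39 genes, 34 passed the filter of 1 TPM, and 23 of these were lower in LrpprcP27A at an adjusted p under 0.05 (limma on log2(TPM + 1), Benjamini-Hochberg over all genes tested). None was higher, nor did any rise at an unadjusted p under 0.05. Over all genes tested, 23.3% were called lower and 1.34% higher. The 11 members tested and not called were Irf9, Ifih1, Ifit2, Ifit3b, Xaf1, Gbp5, Gbp7, Irgm2, Iigp1, Tgtp1 and Tgtp2. The median log2 fold change of the members tested was -0.89, and 33 of 34 lay below 0, with Ifit3b as the exception. Of all 11611 genes tested, 10216 lay below 0, with a median of -0.32. Every LrpprcP27A value lay below every LrpprcWT value in 20 of the 34, beside 47.6% of all genes tested.

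**Figure D1:**
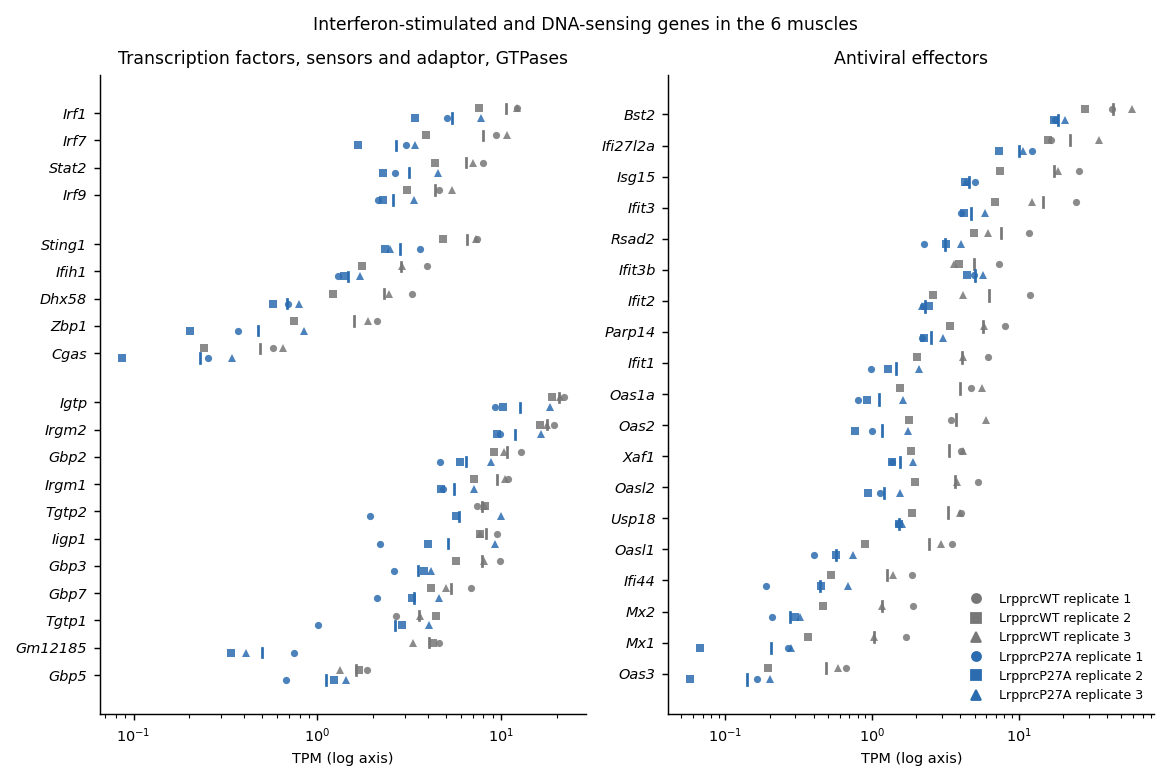
TPM (log axis) of the 39 genes in each of the 6 muscles, with points for libraries, shapes for replicate numbers and short vertical bars for the mean of each group (gray, LrpprcWT; blue, LrpprcP27A). In 22 of the 39 genes, 20 of them among the 34 tested, every blue point lies to the left of every gray point. The same separation holds for 47.6% of all genes tested.

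The number of calls depended on how the libraries were compared. When same-numbered muscles were treated as pairs (replicate block), 32 of 34 members were lower, all except Ifit3b and Gbp5, and so were 48.4% of all genes. After median-of-ratios scaling, 5 of 34 were lower (Gm12185, Sting1, Bst2, Isg15 and Dhx58), with a background of 6.03%, and the median of the members tested was -0.60. With that scaling and the replicate block together, 13 members were lower, with a background of 15.8%. Without LrpprcWT replicate 1, or without LrpprcWT replicate 3, the single member called was Gm12185, beside 2.51% and 0.129% of all genes, respectively. Without LrpprcWT replicate 2, 29 members and 59.5% of all genes were called. Leaving out LrpprcP27A replicates 1, 2 and 3 in turn gave 8, 3 and 9 calls, beside 14.5%, 4.34% and 3.79% of all genes.

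**Figure D2:**
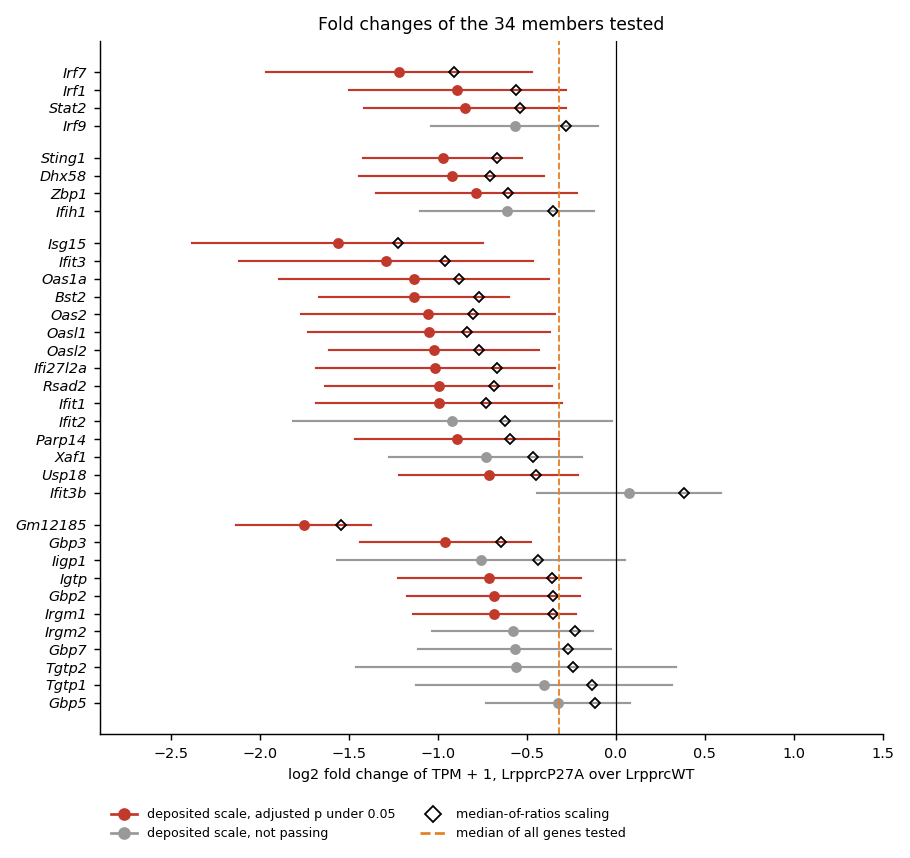
Log2 fold change of TPM + 1 (LrpprcP27A over LrpprcWT) for the 34 genes tested, by role, with 95% confidence intervals from limma (red, adjusted p under 0.05; gray, not passing). Open diamonds give the value after median-of-ratios scaling, and the dashed line the median of all genes at -0.32; Ifit3b alone lies to the right of 0.

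Among the transcription factors, 3 of 4 were lower in LrpprcP27A (all genes tested, 23.3%), with a median log2 fold change of -0.87. Irf7, which amplifies the transcription of interferon genes, had 9.31, 3.90 and 10.7 TPM in LrpprcWT and 3.03, 1.66 and 3.38 TPM in LrpprcP27A. All its LrpprcP27A values were below those of LrpprcWT, and its log2 fold change was -1.22 ± 0.33 (SE; limma adjusted p = 0.0343). Irf1, a factor induced by interferon gamma that drives many GTPase genes, had 12.2, 7.52 and 12.2 TPM in LrpprcWT and 5.09, 3.39 and 7.75 TPM in LrpprcP27A. Here LrpprcP27A replicate 3 was above LrpprcWT replicate 2, so that the groups overlapped, and the log2 fold change was -0.89 ± 0.27 (limma adjusted p = 0.0439). Antisense genes cover part of the Irf1 exons, Gm17334 alone covering 31.36% of them, and the library kit does not preserve strand, so reads of these genes cannot be told apart there. Stat2, a subunit of the ISRE-binding complex, had 7.94, 4.35 and 6.99 TPM in LrpprcWT and 2.64, 2.27 and 4.52 TPM in LrpprcP27A (log2 fold change -0.85 ± 0.25, limma adjusted p = 0.0422). Its groups overlapped by the same pair of libraries. Irf9, the DNA-binding subunit of that complex, had 4.58, 3.08 and 5.41 TPM in LrpprcWT and 2.13, 2.28 and 3.34 TPM in LrpprcP27A. Irf9 did not pass (log2 fold change -0.57 ± 0.21, limma adjusted p = 0.0676) and passed with the replicate block (limma adjusted p = 0.00334). After median-of-ratios scaling, none of the 4 factors was called.

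Among the sensors and their adaptor, 3 of the 4 genes tested were lower (median -0.85), beside 23.3% of all genes tested. After median-of-ratios scaling, 2 of the 4 (Sting1 and Dhx58) were still called lower, beside 6.03% of all genes tested. Sting1, the adaptor downstream of cGAS, had 7.34, 4.81 and 7.32 TPM in LrpprcWT and 3.61, 2.34 and 2.47 TPM in LrpprcP27A. The groups were fully separated, with a log2 fold change of -0.97 ± 0.20 (limma adjusted p = 0.0191), or -0.67 after median-of-ratios scaling (limma adjusted p = 0.0347). Cgas, the DNA sensor itself, was too low to be tested, with 0.570, 0.240 and 0.648 TPM in LrpprcWT and 0.255, 0.0865 and 0.345 TPM in LrpprcP27A. Its groups overlapped, and an opposite-strand gene, Gm68924, covers 34.37% of its exon bases. Dhx58, which encodes the RIG-I-like receptor LGP2, had 3.26, 1.21 and 2.45 TPM in LrpprcWT and 0.690, 0.576 and 0.793 TPM in LrpprcP27A. The LrpprcP27A libraries were close to each other and below all LrpprcWT libraries (log2 fold change -0.92 ± 0.23, limma adjusted p = 0.0286). Ifih1, which encodes MDA5, had 3.97, 1.74 and 2.87 TPM in LrpprcWT and 1.30, 1.39 and 1.69 TPM in LrpprcP27A. These values were separated by a narrow gap and did not pass (log2 fold change -0.61 ± 0.21, limma adjusted p = 0.0637), whereas they passed with the replicate block (limma adjusted p = 0.00541). Zbp1, a sensor of Z-form nucleic acid, had 2.10, 0.745 and 1.89 TPM in LrpprcWT and 0.370, 0.202 and 0.850 TPM in LrpprcP27A (log2 fold change -0.79 ± 0.25, limma adjusted p = 0.0496), and its LrpprcP27A replicate 3 exceeded LrpprcWT replicate 2.

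The antiviral effectors act in infected cells against viral RNA, viral proteins or the release of particles. Of the 15 effectors tested, 12 were lower (all genes tested, 23.3%) and none was higher, with a median log2 fold change of -1.02. After median-of-ratios scaling, 2 of the 15 (Bst2 and Isg15) were still called lower, beside 6.03% of all genes tested. The summed level of the 19 effectors was 186.9, 86.6 and 180.0 TPM in LrpprcWT and 58.5, 54.0 and 69.4 TPM in LrpprcP27A. LrpprcWT replicate 2 lay closer to the LrpprcP27A libraries than to the other LrpprcWT libraries. Bst2 (tetherin, which holds budding virus at the cell surface) was the most abundant member, with 43.6, 28.2 and 59.5 TPM in LrpprcWT and 17.6, 17.5 and 20.7 TPM in LrpprcP27A. Its LrpprcP27A values were nearly equal and all lower (log2 fold change -1.13 ± 0.24, limma adjusted p = 0.0205; -0.77 after median-of-ratios scaling, limma adjusted p = 0.0384). Isg15, a ubiquitin-like protein attached to other proteins, had 25.9, 7.41 and 18.5 TPM in LrpprcWT and 5.07, 4.28 and 4.34 TPM in LrpprcP27A. It had the lowest log2 fold change of the effectors, at -1.56 ± 0.36 (limma adjusted p = 0.0249; -1.23 after median-of-ratios scaling, limma adjusted p = 0.0477). The opposite-strand gene Gm46878 covers 31.07% of the exon bases of Isg15. Ifi27l2a, of a family of small hydrophobic interferon-induced proteins, had 16.6, 15.9 and 35.1 TPM in LrpprcWT and 12.3, 7.38 and 10.7 TPM in LrpprcP27A. The groups did not overlap (log2 fold change -1.02 ± 0.30, limma adjusted p = 0.0406), and LrpprcWT replicate 3 stood above the others. The neighboring gene Ifi27 shares 15.02% of the exon bases of Ifi27l2a on the opposite strand.

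The other effectors called lower were Ifit1, Ifit3, Usp18, Oas1a, Oas2, Oasl1, Oasl2, Rsad2 and Parp14. Their log2 fold changes ranged from -1.29 for Ifit3 to -0.71 for Usp18, a protease that removes ISG15 from its targets. The Oas and Oasl genes encode sensors of double-stranded RNA and their relatives, and Oasl1 had the largest ratio of means among the effectors tested, 4.31-fold higher in LrpprcWT than in LrpprcP27A. Oas1a shares 40.29% of its 100-base transcript windows with Oas1g, so reads may have been divided between them. Rsad2, which encodes viperin, had 11.7, 4.96 and 6.20 TPM in LrpprcWT and 2.25, 3.18 and 4.06 TPM in LrpprcP27A (log2 fold change -0.996 ± 0.28, limma adjusted p = 0.0383). The effectors not called were Ifit2 (-0.92 ± 0.39, limma adjusted p = 0.101), Xaf1 (-0.73 ± 0.24, limma adjusted p = 0.0525) and Ifit3b. With the replicate block, Ifit2 and Xaf1 passed (limma adjusted p = 0.00322 and 0.00115). In Ifit2, LrpprcWT replicate 1 was at 12.0 TPM and the other 5 libraries lay between 2.18 and 4.14 TPM.

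The 4 effectors below the filter were Mx1, Mx2, Oas3 and Ifi44. Mx1 had 1.71, 0.367 and 1.04 TPM in LrpprcWT and 0.265, 0.0673 and 0.282 TPM in LrpprcP27A. Mx2 had 1.89, 0.467 and 1.16 TPM in LrpprcWT and 0.208, 0.296 and 0.324 TPM in LrpprcP27A. For both Mx genes, the groups were separated by less than the spread within LrpprcWT. Oas3 had 0.665, 0.196 and 0.587 TPM in LrpprcWT and 0.163, 0.0577 and 0.201 TPM in LrpprcP27A, and Ifi44 had 1.88, 0.526 and 1.40 TPM in LrpprcWT and 0.188, 0.449 and 0.680 TPM in LrpprcP27A. In these latter genes, the highest LrpprcP27A library exceeded LrpprcWT replicate 2.

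Ifit3 and Ifit3b are neighboring copies on chromosome 19 (34560899-34566443 and 34585328-34590801, GRCm39, plus strand) that differed in their values in spite of the similar promoters shown above. Ifit3 had 24.4, 6.85 and 12.3 TPM in LrpprcWT and 4.03, 4.24 and 5.89 TPM in LrpprcP27A (log2 fold change -1.29 ± 0.36, limma adjusted p = 0.0381). Ifit3b had 7.31, 3.92 and 3.60 TPM in LrpprcWT and 4.94, 4.46 and 5.72 TPM in LrpprcP27A (log2 fold change 0.07 ± 0.23, limma adjusted p = 0.804), and its groups overlapped. The log2 ratio of Ifit3 to Ifit3b was 1.74, 0.81 and 1.78 in LrpprcWT and -0.30, -0.07 and 0.04 in LrpprcP27A. The ratios did not overlap, and the difference between the group means was -1.55 on the log2 scale (2-sided exact permutation p = 0.1, the smallest that 3 against 3 can give). This ratio was chosen after the values were seen. The transcripts share 26.58% (Ifit3) and 27.23% (Ifit3b) of their 100-base windows, and how reads that match both were counted is not given in the sources used here. The sum of both genes was not called (log2 fold change -0.81 ± 0.32, limma adjusted p = 0.0855).

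**Figure D3:**
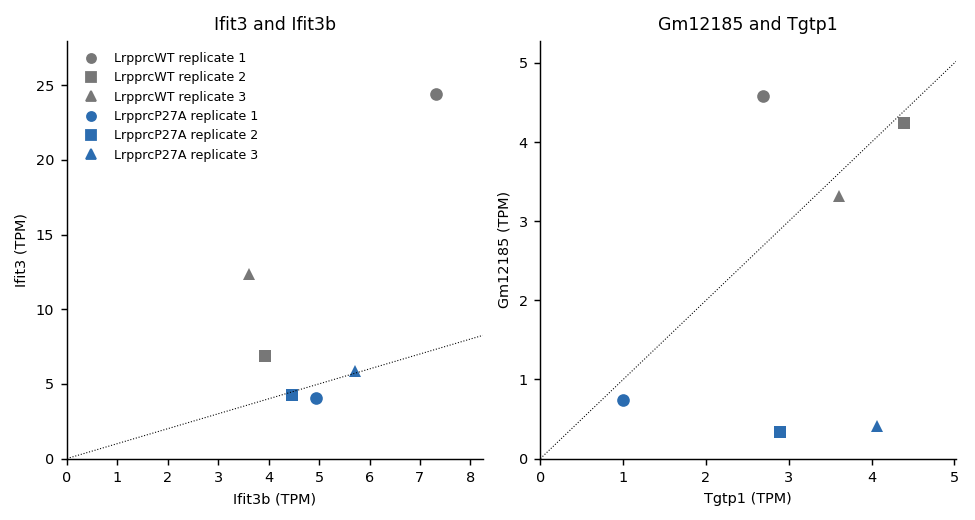
TPM of Ifit3 against Ifit3b (left) and of Gm12185 against Tgtp1 (right), with a point for each muscle (gray, LrpprcWT; blue, LrpprcP27A; shapes, replicate numbers) and a dotted line of equal values. On the left, the gray points lie above the line and the blue points near it; on the right, all blue points lie under 1 TPM of Gm12185 and spread along the Tgtp1 axis.

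The interferon-inducible GTPases act on the membranes around intracellular pathogens and are classical targets of interferon gamma. Of 11 tested, 5 were lower (Gbp2, Gbp3, Igtp, Irgm1 and Gm12185), beside 23.3% of all genes tested. The median log2 fold change of the 11 was -0.68, and after median-of-ratios scaling 1 (Gm12185) was called lower, beside 6.03% of all genes tested. The summed level was 107.7, 87.3 and 96.5 TPM in LrpprcWT and 39.8, 51.6 and 84.7 TPM in LrpprcP27A, so that LrpprcP27A replicate 3 came close to the lowest LrpprcWT library. Igtp had 21.9, 18.8 and 20.8 TPM in LrpprcWT and 9.28, 10.3 and 18.5 TPM in LrpprcP27A (log2 fold change -0.71 ± 0.23, limma adjusted p = 0.0497). The call of Igtp was thus near the threshold, and LrpprcP27A replicate 3 was just under the LrpprcWT values. Irgm2 had 19.4, 16.2 and 17.8 TPM in LrpprcWT and 9.78, 9.52 and 16.4 TPM in LrpprcP27A. It did not pass (log2 fold change -0.58 ± 0.20, limma adjusted p = 0.0598) and passed with the replicate block (limma adjusted p = 0.00357). Igtp and Irgm2 overlap on chromosome 11 and share 162 exon bases on the same strand. Gbp2, a guanylate-binding protein, had 12.8, 9.17 and 10.4 TPM in LrpprcWT and 4.63, 5.96 and 8.79 TPM in LrpprcP27A (log2 fold change -0.69 ± 0.21, limma adjusted p = 0.0477). Its relative Gbp5 had 1.86, 1.68 and 1.33 TPM in LrpprcWT and 0.673, 1.23 and 1.43 TPM in LrpprcP27A, and was called in neither fit (log2 fold change -0.33 ± 0.18, limma adjusted p = 0.168; replicate block, limma adjusted p = 0.1001). Gbp2, Gbp3, Gbp5 and Gbp7 are neighbors on chromosome 3 (142199739 to 142343779, GRCm39), where Gbp3 was lower (log2 fold change -0.96 ± 0.21, limma adjusted p = 0.0236) and Gbp7 did not pass (-0.57 ± 0.24, limma adjusted p = 0.0964; replicate block, limma adjusted p = 0.0156).

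Gm12185, an immunity-related GTPase gene on chromosome 11 (48795483-48883147, GRCm39, minus strand), had the lowest log2 fold change of all members. Its values were 4.59, 4.24 and 3.32 TPM in LrpprcWT and 0.746, 0.338 and 0.410 TPM in LrpprcP27A, with means of 4.05 ± 0.655 and 0.498 ± 0.218 TPM (SD, n = 3 each). The mean was 8.14-fold higher in LrpprcWT, and the gap between the groups exceeded the spread within either of them. The log2 fold change was -1.75 ± 0.17 (limma adjusted p = 0.00421) and -1.55 after median-of-ratios scaling (limma adjusted p = 0.0165). It was the sole member called whichever library was left out, with limma adjusted p between 0.00220 and 0.0335. The neighboring gene Tgtp1 had 2.68, 4.39 and 3.61 TPM in LrpprcWT and 1.00, 2.89 and 4.06 TPM in LrpprcP27A, and Tgtp2 had 7.40, 8.17 and 8.0 TPM in LrpprcWT and 1.93, 5.67 and 10.02 TPM in LrpprcP27A. In both Tgtp genes, LrpprcP27A replicate 1 was the lowest library while replicate 3 lay within or above the LrpprcWT values. Neither Tgtp1 (log2 fold change -0.40 ± 0.32, limma adjusted p = 0.314) nor Tgtp2 (-0.56 ± 0.40, limma adjusted p = 0.270) passed, and both passed with the replicate block (limma adjusted p = 0.0489 and 0.0357).

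In GENCODE M39, the canonical transcripts of Gm12185 and Tgtp1 begin at the same base, so their 300-base promoter windows were identical. These genes also share 317 exon bases. The log2 ratio of Gm12185 to Tgtp1 was 0.77, -0.05 and -0.12 in LrpprcWT and -0.43, -3.10 and -3.31 in LrpprcP27A (2-sided exact permutation p = 0.1, the smallest possible, and 0.1 after adjustment over the 2 ratios of this kind). This ratio was also chosen after the values were seen, which the adjustment does not account for. In terms of sequence, Tgtp1 and Tgtp2 share 78.25% and 80.41% of their 100-base windows, so their separate values are uncertain. Gm12185 shares 4.15% of its windows with Tgtp1 and 4.74% with Gm5431, a related gene that was listed at no more than 0.452 TPM in any library. The sum of Tgtp1, Tgtp2 and Gm12185 was not called (log2 fold change -0.88 ± 0.36, limma adjusted p = 0.0915). Iigp1, another gene of this family, had 9.48, 7.68 and 7.64 TPM in LrpprcWT and 2.20, 3.99 and 9.19 TPM in LrpprcP27A. Its lowest library was again LrpprcP27A replicate 1, while LrpprcP27A replicate 3 lay within the LrpprcWT values. It did not pass (log2 fold change -0.76 ± 0.36, limma adjusted p = 0.124; replicate block, limma adjusted p = 0.00976).

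Within the pairs of same-numbered muscles, the median log2 difference of the effectors tested was -1.55, -0.43 and -0.94 in pairs 1, 2 and 3. For the GTPases it was -1.29, -0.51 and -0.11, with Gbp5, Iigp1, Tgtp1 and Tgtp2 higher in the LrpprcP27A muscle of pair 3. Transcription factors gave -1.21, -0.80 and -0.58, and sensors with their adaptor -1.14, -0.51 and -0.79. The corresponding medians of all genes tested were -0.39, -0.16 and -0.40. In all, 34 of 39 members were lower in the LrpprcP27A muscle of every pair, the exceptions being Ifit3b and these 4 GTPases. The share of all genes lower in every pair was not computed, so this count has no background. By log2 fold change, 10216 of 11611 genes tested lay below 0. The difference between role groups was not tested.

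**Figure D4:**
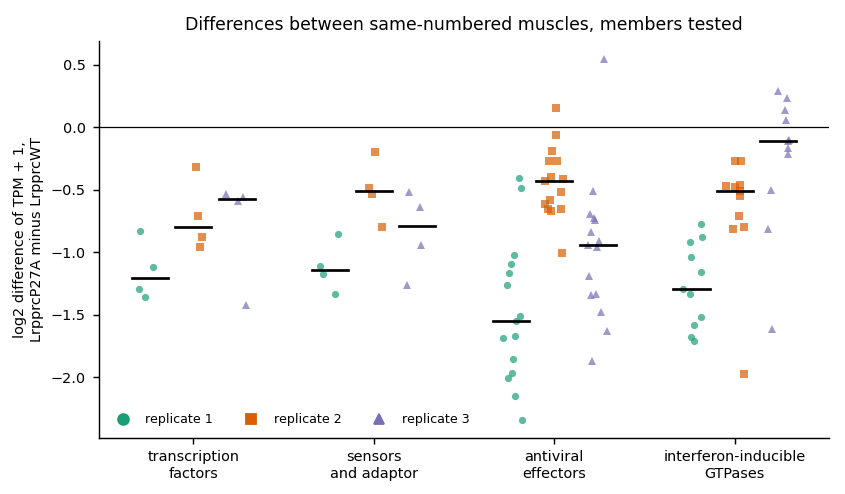
Log2 difference of TPM + 1 (LrpprcP27A minus LrpprcWT) between muscles with the same replicate number, for the 34 members tested, by role. Points stand for genes, colors and shapes for the replicate numbers, and black bars for medians; in the GTPases, the bar of replicate 3 lies at -0.11.

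Members with an ISRE core in the promoter were called lower in 14 of 22 cases (median log2 fold change -0.77), and those without in 9 of 12 (median -0.94). For GAS, 6 of 13 with a match and 17 of 21 without were called. Over all genes tested, the shares called lower were 28.53% with and 23.5% without an ISRE core, and 25.19% with and 23.55% without a GAS core. The members with a match were thus not called more often than those without.

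The genes upstream of the members were examined next. All 21 interferon genes of the table were near or at 0: 19 were listed at 0 in each library, Ifnz was above 0 in a single LrpprcWT library (0.0339 TPM), and Ifng, interferon gamma, reached no more than 0.0443 TPM. Among 14 tested genes for interferon receptors and their signaling, 5 were lower (11 with the replicate block). Over all genes tested, 23.3% were lower (48.4% with the replicate block). Ifnar1 and Ifnar2, the chains of the type I receptor, were both lower, with log2 fold changes of -0.72 ± 0.20 (limma adjusted p = 0.0353) and -0.99 ± 0.21 (limma adjusted p = 0.0205). Ifnar2 had 9.49, 5.91 and 9.08 TPM in LrpprcWT and 4.63, 3.02 and 3.12 TPM in LrpprcP27A. The chains of the gamma receptor did not pass: Ifngr1 had a log2 fold change of -0.60 ± 0.22 (limma adjusted p = 0.0677; replicate block, limma adjusted p = 0.000669) and Ifngr2 -0.12 ± 0.10 (limma adjusted p = 0.370). For the kinases, log2 fold changes were -0.06 ± 0.13 for Jak1 (limma adjusted p = 0.724), -0.37 ± 0.19 for Tyk2 (limma adjusted p = 0.152; replicate block, limma adjusted p = 0.0385) and 0.33 ± 0.15 for Jak2 (limma adjusted p = 0.120). After median-of-ratios scaling, the values of Jak1 and Ifngr2 lay above 0 (0.31 and 0.25), and Jak2 was called higher (0.69, limma adjusted p = 0.0326). Of the negative regulators tested, Ptpn6, the phosphatase SHP-1 of blood cells (-1.04 ± 0.19, limma adjusted p = 0.0163), and Socs1 (-0.79 ± 0.19, limma adjusted p = 0.0282) were lower. Ptpn2 (-0.41, limma adjusted p = 0.057), Pias1 (-0.33, limma adjusted p = 0.092) and Ptpn1 (-0.35, limma adjusted p = 0.147) did not pass, and passed with the replicate block (limma adjusted p = 0.0149, 0.0419 and 0.0299). After median-of-ratios scaling, Ptpn6 and Ifnar2 were the receptor and signaling genes still called lower, while Ifnar1 (-0.40, limma adjusted p = 0.102) and Socs1 (-0.63, limma adjusted p = 0.0985) were not.

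Of 22 tested nucleic acid sensing genes outside the 39, 11 were lower and none higher (19 lower with the replicate block). The shares of all genes called lower were 23.3% and 48.4% in these fits. The lowest p-values belonged to Unc93b1, the chaperone of endosomal Toll-like receptors (-1.17 ± 0.22, limma adjusted p = 0.0166), and to Mndal and Ifi203, genes of the DNA-binding PYHIN family (-1.10 ± 0.21 and -1.17 ± 0.26, limma adjusted p = 0.0168 and 0.0238). Tbk1, the kinase that STING and MAVS engage, was lower as well (-0.58 ± 0.17, limma adjusted p = 0.0425). Mavs (-0.43 ± 0.14, limma adjusted p = 0.0512) and Irf3, the substrate of TBK1 (-0.51 ± 0.17, limma adjusted p = 0.0527), narrowly failed to pass and did so with the replicate block (limma adjusted p = 0.00861 and 0.00311). After median-of-ratios scaling, 4 of the 22 were lower, among them Unc93b1, Mndal and Ifi203, beside 6.03% of all genes tested. Tbk1 was then not called (-0.25, limma adjusted p = 0.119).

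Of 43 other interferon-stimulated genes tested, 28 were lower and none higher (41 lower with the replicate block), beside 23.3% (48.4%) of all genes. Cxcl10, a chemokine that attracts T cells, had 5.19, 2.22 and 12.4 TPM in LrpprcWT and 0.490, 0.249 and 0.903 TPM in LrpprcP27A. The groups were separated, and its log2 fold change was -2.08 ± 0.44 (limma adjusted p = 0.0209). Ifitm3, which blocks virus entry, fell from 180 ± 55.2 to 74.8 ± 13.5 TPM (SD, n = 3 each; log2 fold change -1.23 ± 0.23, limma adjusted p = 0.0168), and Cxcl9, a chemokine induced by interferon gamma, had -0.81 ± 0.17 (limma adjusted p = 0.0202). No gene of these lists was higher at an unadjusted p under 0.05 by limma or by the Kruskal-Wallis test. Over these lists together, 44 of 78 genes tested were lower and 77 had a log2 fold change below 0, with a median of -0.67. Over all genes tested, 23.3% were lower and 10216 of 11611 lay below 0. After median-of-ratios scaling, 12 of the 78 were lower, beside 6.03% of all genes tested. Cxcl10 and Ifitm3 were among the 12 and Cxcl9 was not (limma adjusted p = 0.0504). Jak2 was higher, and the median of the 78 was -0.39.

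Markers of other cells in muscle also differed between the groups. All 11 tested macrophage and monocyte markers were lower in LrpprcP27A (median log2 fold change -1.36), and their summed level was 433.6, 338.2 and 682.7 TPM in LrpprcWT and 231.5, 112.8 and 169.1 TPM in LrpprcP27A. By pairs 1, 2 and 3, the median log2 difference of these markers was -0.74, -1.35 and -1.76, that of endothelial markers -0.73, -0.34 and -0.78, and that of fibroblast markers -0.98, -0.96 and -1.08, beside -1.30, -0.51 and -0.71 for the 34 members tested. The smallest difference fell in pair 2 for the members, the endothelial markers and the fibroblast markers, and in pair 1 for the macrophage markers. Pair 2 was also the smallest for all genes tested (-0.39, -0.16 and -0.40), and the fibroblast medians were nearly equal. Among the member groups, the GTPases (-0.11) and the transcription factors (-0.58) had their smallest difference in pair 3. Fibroblast and fibro-adipogenic progenitor markers were lower in 6 of 8 cases (median -1.05), and endothelial markers in 3 of 8 (median -0.63). Over all genes tested, 23.3% were called lower. The summed level of T and NK cell markers was 4.46 to 5.63 TPM in LrpprcWT and 1.26 to 3.02 TPM in LrpprcP27A, and that of dendritic cell markers 1.77 to 3.54 and 0.940 to 1.69 TPM. Trac, Ighm and Mpo, which mark T cells, B cells and immature neutrophils, were listed at 0 in each library. Other T and B cell markers, Cd3e (0.0738 to 0.255 TPM) and Cd79a (0.489 to 2.18 TPM), were above 0 in each library. The values at 0 therefore do not show that T or B cells were absent. None of the 2 tested B cell markers, the 4 tested neutrophil markers or the 5 red blood cell markers was called by limma, and S100a9 alone among these 11 had an unadjusted p under 0.05. With the replicate block, Cd79a, S100a9 and Csf3r were lower (limma adjusted p = 0.026, 0.0051 and 0.0172), and the hemoglobin genes Hbb-bs and Hbb-bt were higher (limma adjusted p = 0.0486 and 0.0148). In that fit, 48.4% of all genes were lower and 2.69% higher. Of 10 myofiber genes, 2 were lower and 1 was higher (median -0.07). After median-of-ratios scaling, 4 of 11 macrophage, 4 of 8 fibroblast and 0 of 8 endothelial markers were lower, and of the myofiber genes 0 were lower and 1 was higher. Of all genes, 6.03% were then lower and 5.25% higher. With that scaling and the replicate block, the lower counts of macrophage, fibroblast, endothelial and myofiber genes were 10, 5, 4 and 1, beside 15.8% of all genes. All 5 red blood cell markers and 4 of the 10 myofiber genes were higher in that fit, beside 13.4% of all genes. The part of these cell types in the values of the interferon-stimulated genes was not tested.

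**Figure D5:**
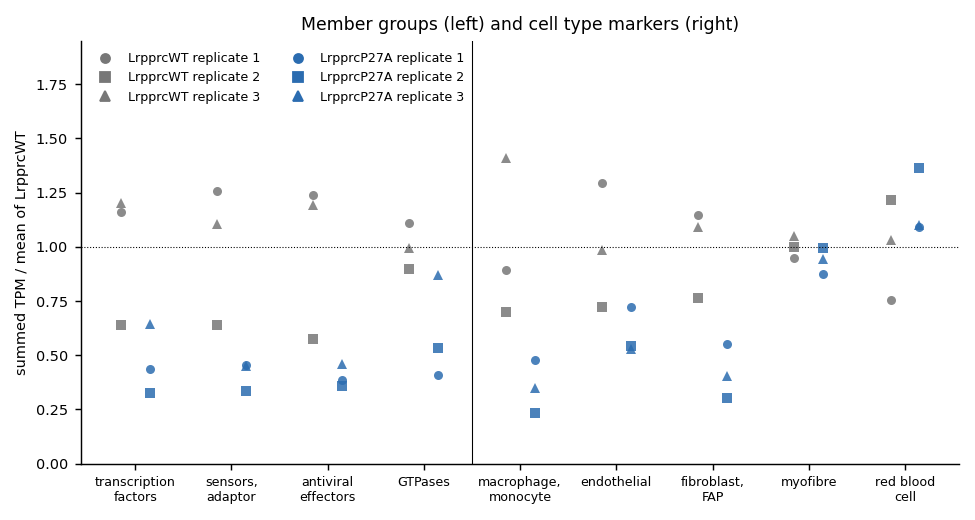
Summed TPM of the member groups (left of the line) and of cell type markers (right; FAP, fibro-adipogenic progenitor), divided by the mean of the LrpprcWT muscles, in each of the 6 muscles (gray, LrpprcWT; blue, LrpprcP27A; shapes, replicate numbers). The 4 member groups and the macrophage, fibroblast and endothelial markers lie lower in LrpprcP27A on average, whereas myofiber genes lie near 1 in both groups.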

How the data were processed

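Total RNA from 6 tibialis anterior muscles was sequenced by the authors with the TruSeq RNA Sample Prep v2 kit, which does not preserve strand, as 100-base paired-end reads. The deposited table holds TPM per gene symbol, computed by the authors in CLC Genomics Workbench against GRCm39 (mm39, per the submitters' processing notes); the annotation and the treatment of multi-mapping reads are not given in the sources used here. Columns of other samples numbered 0. Sums of TPM were 1000000 per library, so depth is unknown.

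Genes with a mean of at least 1 TPM (11611) were tested as log2(TPM + 1), LrpprcP27A against LrpprcWT, with limma 3.58.1 (R 4.3.3, moderated with a mean trend) and Benjamini-Hochberg adjustment over all of them; fold changes on this scale understate those of low genes. The study itself used a rank test (Kruskal-Wallis), which was run as an alternative. The code was tested on simulated data. The 39 members, the pathway lists and the markers were chosen with earlier results of these data known. Values in every library are given for the 3 most abundant members of each role, the extremes of fold change and near-identical copies; other genes with such values, and the ratios of copies, were added after their values were seen. In the pathway lists, receptors, kinases, adaptors and the 3 genes with the lowest p are named; 1 gene of these lists is not reported here. The labels give both groups the same replicate numbers. The study describes LrpprcWT and LrpprcP27A as placed in contralateral muscles of a mouse, with biological replicates within each group. Deviations from the group means correlated at 0.36, 0.53 and 0.36 between same-numbered muscles, so that the numbers were taken as pairs and a replicate block was fitted as an alternative. Further alternatives were median-of-ratios scaling, quantile normalization, rescaling without mitochondrial and ribosomal RNA genes, other filters and pseudocounts, no trend, summed copies, and leaving out each library. Promoters were read from GRCm39 with GENCODE M39, and copies were aligned with Biopython 1.88.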

Additional observations from a re-analysis of the deposited data

How the results depend on the processing

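Of the 34 members tested, 23 were lower in LrpprcP27A. The replicate block (paired muscles) gave 32, the block with median-of-ratios scaling 13, median-of-ratios scaling alone 5, quantile normalization 3, rescaling without mitochondrial and ribosomal RNA genes 3, and leaving out 1 library between 1 (without LrpprcWT replicate 1 or 3) and 29 (without LrpprcWT replicate 2). A filter of 5 TPM gave 9 of the 14 members it left, no filter gave 1 (31 at an unadjusted p under 0.05), and the Kruskal-Wallis test gave 0 (20 unadjusted), since 3 against 3 cannot pass its adjusted threshold. Of the 78 pathway genes, 44 were lower, and the same settings gave 70 with the replicate block, 12 with median-of-ratios scaling, 6 with quantile normalization, 10 with rescaling, 0 to 69 without 1 library, 21 of 42 at 5 TPM, 0 without a filter (73 unadjusted) and 0 by the Kruskal-Wallis test (57 unadjusted). Over all genes, the shares called lower were 4.46% with quantile normalization, 5.69% with rescaling, 22% at 5 TPM and 0.196% without a filter. For the unadjusted counts, the share of all genes without a filter was not computed. By the Kruskal-Wallis test, 3 against 3 gives an unadjusted p under 0.05 only where the groups do not overlap. Every LrpprcP27A value lay below every LrpprcWT value in 47.6% of all genes tested. Pathway genes called higher numbered 1 with median-of-ratios scaling, 2 with that scaling and the replicate block, and 1 with quantile normalization. Beside these, 5.25%, 13.4% and 4.25% of all genes were higher. The median log2 fold change of the members stayed below 0 in each setting. With quantile normalization, 1 member was higher at an unadjusted limma p under 0.05, and 0 after adjustment. Only Ifit3b and Gbp5 changed sign. With 1 library left out, Ifit3b ranged from -0.087 (without LrpprcWT replicate 3) to 0.34 (without LrpprcWT replicate 1). It was at -0.039 without LrpprcWT replicate 2 and -0.0079 without LrpprcP27A replicate 3. After median-of-ratios scaling, Ifit3b was at 0.38. Gbp5 was at 0.0039 with quantile normalization. The cause of these changes was not tested. Depth, and thus the counting error of members under 1 TPM, is unknown.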

Other observations

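Psmb8 and Psmb9, catalytic subunits of the immunoproteasome, had log2 fold changes in LrpprcP27A of -0.67 (limma adjusted p = 0.0239) and -0.64 (limma adjusted p = 0.0226), and Tap1, a subunit of the peptide transporter of the endoplasmic reticulum, had -0.65 (limma adjusted p = 0.0492). The partners Parp9 and Dtx3l, which act together in ADP-ribosylation and ubiquitination, had nearby values of -0.75 (limma adjusted p = 0.0392) and -0.65 (limma adjusted p = 0.0434). After median-of-ratios scaling, Psmb8 was still called (limma adjusted p = 0.0434), whereas Psmb9, Tap1, Parp9 and Dtx3l were not (limma adjusted p = 0.0656, 0.185, 0.0877 and 0.126). These 5 genes were picked from the list of other interferon-stimulated genes after their values were seen, and no group test was made.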
